A study of Homo sapiens with 2 samples.

Results

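The T cell receptor complex and its first signalling steps were followed through 9 genes of the 19220 in the count table, chosen by name: CD3D, CD3E, CD3G, CD247, LCK, ZAP70, LAT, LCP2 and TRAT1. The cells were H9, an established human T cell lymphoma line grown from 1 clone, labelled as T lymphocytes of wild-type genotype. Poly(A)-selected RNA was sequenced in 1 library after 6 h in 0.05 µM doxorubicin, with 50174434 counts, and in 1 library of untreated cells, labelled as 0 h of the drug, with 33730703 counts. The drug, an anthracycline used in chemotherapy, damages DNA by way of topoisomerase II. The comparison asks how exposure to the drug goes with expression in these cells. No untreated library is labelled as kept in culture for the same 6 h. The drug and time in culture therefore cannot be told apart, and "with doxorubicin" below names the library only. With 1 library per condition there is no test and no p-value, and every interval below covers counting error only. In such bulk RNA, fewer cells of a type and less RNA per cell cannot be told apart.

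The antigen-binding chains of the T cell receptor have almost no cytoplasmic tail. They signal through the CD3 gamma, delta and epsilon chains (CD3G, CD3D, CD3E) and the zeta chain (CD247), whose cytoplasmic parts carry tyrosine motifs. The Src-family kinase LCK phosphorylates those motifs, the kinase ZAP70 docks on them and phosphorylates the adaptors LAT and SLP-76 (encoded by LCP2), and these assemble the complexes that turn on calcium, Ras and NF-kappaB signalling. TRAT1 encodes TRIM, a transmembrane adaptor that associates with the receptor.

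All 9 genes were measured, which means at least 100 counts summed over both libraries. They did not move as a block. CD3G was 2.16-fold higher with doxorubicin and TRAT1 was 1.67-fold lower, while the other 7 genes lay between 1.49-fold lower and 1.398-fold higher. A gene was called higher or lower when the TMM-scaled ratio of doxorubicin over untreated reached 1.5-fold and its 95% counting interval excluded 1. By this size rule 1 of 9 genes was higher and 1 was lower, where 7.26% of all 11244 measured genes were higher and 9.57% were lower, or 16.8% in either direction. The counting interval lay above 1 for 3 genes and below 1 for 4, where 38.1% of all genes lay above and 36.9% below, or 75.1% in either direction. With the limit set at 25% above 1, or its inverse, 3 of the 9 genes were higher and 4 lower, where 20.4% of all genes were higher and 21.5% lower. At 2-fold 1 was higher and 0 lower, where 1.14% of all genes were higher and 1.56% lower. The median log2 ratio of the 9 genes was -0.05, against 0.007 for all measured genes. After adjustment for transcript length it was 0.05, against 0.004 for all genes with a length. Under total-count scaling, which shifts the log2 ratio of every measured gene up by 0.07, the median of the 9 genes was 0.02.

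The 3 CD3 genes lie within 50.6 kb of chromosome 11 in GENCODE 29 on GRCh38, an assembly other than the hg19 build named for the counts. CD3E runs on the plus strand at chr11:118304545-118316175. CD3D, on the minus strand at chr11:118338954-118342744, and CD3G, on the plus strand at chr11:118344344-118355161, point away from each other with 1600 bases between their starts. CD247 is at chr1:167430640-167518610 and LCK at chr1:32251239-32286165. ZAP70 is at chr2:97713560-97739862, LAT at chr16:28984826-28990783, LCP2 at chr5:170246237-170298227 and TRAT1 at chr3:108822698-108855005. In these gene models, other protein-coding genes overlapped 1.67% of the exon bases of LCP2 and none of the other 8 genes' exon bases. LAT is the exception for shared sequence, because 92.1% of its sampled stretches of 50 bases also occur in transcripts of other annotated genes, so its count is uncertain. For CD3G that share was 1.89%.

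RefSeq promoter windows on GRCh38.p14, reaching from 250 bases before to 50 after the annotated start, were found for 7 of the 9 genes, and not for CD3E and CD3G. The windows below are those of the neighbour of CD3G (CD3D), of the pair CD247 and LCK, which had nearly equal ratios before any adjustment, and of the gene that was lower (TRAT1). Capitals mark AGGAAG or its reverse complement CTTCCT, a form of the core bound by ETS-family factors.
CD3D, chr11:118342656-118342955, minus strand: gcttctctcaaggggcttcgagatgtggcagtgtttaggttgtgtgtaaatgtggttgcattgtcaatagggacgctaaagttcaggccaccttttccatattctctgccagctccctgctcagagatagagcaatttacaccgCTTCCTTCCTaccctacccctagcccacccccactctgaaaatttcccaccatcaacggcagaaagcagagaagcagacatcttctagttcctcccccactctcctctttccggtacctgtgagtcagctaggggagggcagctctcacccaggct
CD247, chr1:167518480-167518779, minus strand: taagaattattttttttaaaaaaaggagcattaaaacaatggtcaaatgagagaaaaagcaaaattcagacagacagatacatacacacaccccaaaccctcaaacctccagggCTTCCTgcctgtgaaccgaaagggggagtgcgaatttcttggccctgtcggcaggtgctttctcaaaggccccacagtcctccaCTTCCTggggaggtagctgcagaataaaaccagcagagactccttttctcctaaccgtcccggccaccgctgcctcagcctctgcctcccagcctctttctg
LCK distal start, chr1:32251015-32251314, plus strand: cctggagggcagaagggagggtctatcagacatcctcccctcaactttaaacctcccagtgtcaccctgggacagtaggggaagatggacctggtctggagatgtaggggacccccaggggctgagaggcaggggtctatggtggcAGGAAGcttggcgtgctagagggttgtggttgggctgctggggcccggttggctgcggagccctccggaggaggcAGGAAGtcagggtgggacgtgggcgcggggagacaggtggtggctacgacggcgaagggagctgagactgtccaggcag
LCK proximal start, chr1:32273871-32274170, plus strand: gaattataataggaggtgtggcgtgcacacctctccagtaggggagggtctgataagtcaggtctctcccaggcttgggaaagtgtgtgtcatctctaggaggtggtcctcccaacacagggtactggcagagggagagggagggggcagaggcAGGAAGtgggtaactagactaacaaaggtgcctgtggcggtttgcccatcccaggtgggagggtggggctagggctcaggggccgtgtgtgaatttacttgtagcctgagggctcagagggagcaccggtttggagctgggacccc
TRAT1, chr3:108822536-108822835, plus strand: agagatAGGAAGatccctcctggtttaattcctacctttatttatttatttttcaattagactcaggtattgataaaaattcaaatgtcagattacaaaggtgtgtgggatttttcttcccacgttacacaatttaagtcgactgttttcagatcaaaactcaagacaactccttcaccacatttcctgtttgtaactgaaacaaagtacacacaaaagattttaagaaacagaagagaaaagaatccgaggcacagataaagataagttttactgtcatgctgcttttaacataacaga
The ETS letters occurred in 8 of 11 windows, against 33.6% of all 35116 promoter windows of this length. They were in at least 1 window of each of the 7 genes. No share over all genes is given for that, and LCK, ZAP70 and LAT have more than 1 window. In CD3D the matches are at positions -106 and -102 from the start and overlap. LCK has a distal and a proximal start, each with a match, so counts over the whole gene do not separate them. The GC-box letters GGGCGG, on either strand, were in 15786 of all windows and in 2 of the 11, 1 each of ZAP70 and LAT, neither of them printed here. The E-box letters CAGGTG, in 20.6% of all windows, were in 5 of the 11, namely CD247, both LCK windows and 1 window each of ZAP70 and LAT. The RUNX letters TGTGGT, in 13.1% of all windows, were in 4 of the 11, namely CD3D, TRAT1, the distal LCK window and 1 LAT window. The letters TATAAA, in 11.5% of all windows, were in 0 of the 11. A match is a description of the letters, and no binding was measured here.

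CD3G, whose product pairs with CD3 epsilon, stood apart from the other CD3 genes. It had 3134 counts with doxorubicin and 931 untreated, or 62.5 counts per 1000000 counts of the library (CPM) with doxorubicin and 27.6 CPM untreated. The 2 counting intervals did not overlap, and the doxorubicin library was the higher. The ratio was 2.16-fold (2.01 to 2.33), and 99.2% of measured genes had a lower one. CD3D, whose product also pairs with CD3 epsilon, had 7431 counts with doxorubicin and 7122 untreated, which is 148 CPM with doxorubicin and 211 CPM untreated. Its ratio was 1.49-fold lower (1.45 to 1.54), just short of the limit of 1.5-fold and so not called. CD3E, the chain common to both CD3 dimers, had 8864 counts, or 177 CPM, with doxorubicin and 7149 counts, or 212 CPM, untreated. Its log2 ratio was -0.33 (-0.38 to -0.29), below the size limit.

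**Figure D1:**
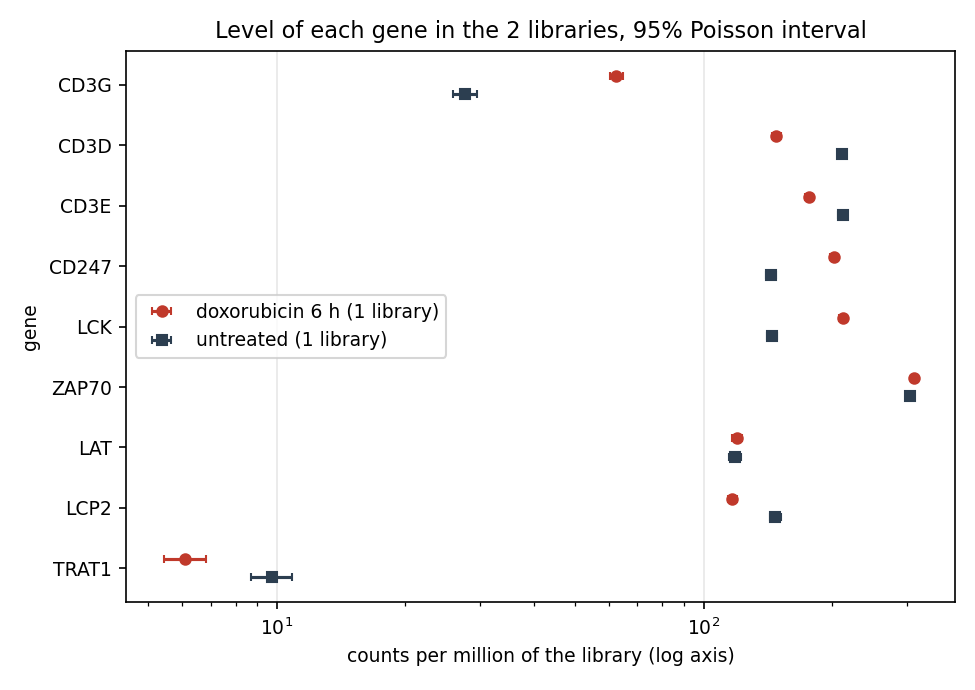
Level of each gene in CPM on a log axis, with the doxorubicin library above the untreated library in each row and bars for exact 95% Poisson intervals. CD3G stood at 62.5 CPM with doxorubicin against 27.6 CPM untreated, TRAT1 at 6.10 CPM with doxorubicin against 9.72 CPM untreated, and ZAP70 at 311.7 CPM with doxorubicin against 304.7 CPM untreated.

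The share of each chain within the CD3 counts does not depend on scaling between libraries. CD3G made up 16.1% (15.6 to 16.7, exact binomial) of the 19429 CD3 gamma, delta and epsilon counts with doxorubicin and 6.12% (5.75 to 6.52) of 15202 untreated. CD3D made up 38.2% (37.6 to 38.9) with doxorubicin and 46.8% (46.0 to 47.6) untreated. CD3E made up 45.6% (44.9 to 46.3) with doxorubicin and 47.0% (46.2 to 47.8) untreated. The share of CD3G was larger with doxorubicin and that of CD3D smaller, while the 2 intervals of CD3E overlapped. Divided by transcript length, CD3G made up 7.51% with doxorubicin and 2.62% untreated, the smallest share of the 3 in both libraries. UBE4A, a gene that begins 4424 bases past the end of CD3G, had 4539 counts with doxorubicin and 2301 untreated. Its ratio of 1.265-fold (1.203 to 1.331) was below the size limit and is given without adjustment for length. Over all measured genes, 38.1% had an interval above 1.

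CD247, whose zeta chain carries most of the tyrosine motifs of the receptor, had 10145 counts with doxorubicin and 4861 untreated, or 202 CPM with doxorubicin and 144 CPM untreated. Its ratio of 1.34-fold (1.29 to 1.39) was below the size limit, and 85.5% of measured genes were lower. LCK, the kinase that phosphorylates the CD3 and zeta tails, had 10636 counts with doxorubicin and 4880 untreated, or 212 CPM with doxorubicin and 145 CPM untreated. The ratio was 1.398-fold (1.351 to 1.446), also below the limit. LCK and CD247 had nearly the same count in each library, and the ratio between them was 1.048 with doxorubicin and 1.004 untreated. ZAP70, the kinase recruited to the phosphorylated tails, had 15639 counts with doxorubicin and 10278 untreated, or 311.7 CPM with doxorubicin and 304.7 CPM untreated. At a log2 ratio of -0.04 (-0.07 to 0.0008) its interval held 0, and under total-count scaling the ratio was 0.03, so it has no settled direction. LCK made up 40.5% (39.9 to 41.1) of the counts of the 2 kinases with doxorubicin and 32.2% (31.45 to 32.94) untreated.

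Of the adaptors, LAT, the membrane scaffold phosphorylated by ZAP70, had 6011 counts, or 119.8 CPM, with doxorubicin and 3998 counts, or 118.5 CPM, untreated. Its log2 ratio of -0.05 (-0.11 to 0.006) was 0.02 under total-count scaling, again without a settled direction. LCP2, which encodes the cytosolic partner SLP-76, had 5867 counts with doxorubicin and 4971 untreated, or 117 CPM with doxorubicin and 147 CPM untreated, a log2 ratio of -0.40 (-0.46 to -0.35). TRAT1 had the fewest counts, 306 with doxorubicin and 328 untreated, or 6.10 CPM with doxorubicin and 9.72 CPM untreated. It was 1.67-fold lower (1.43 to 1.96), and 5.36% of measured genes had a lower ratio. Its interval is the widest of the 9 because of its low count.

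**Figure D2:**
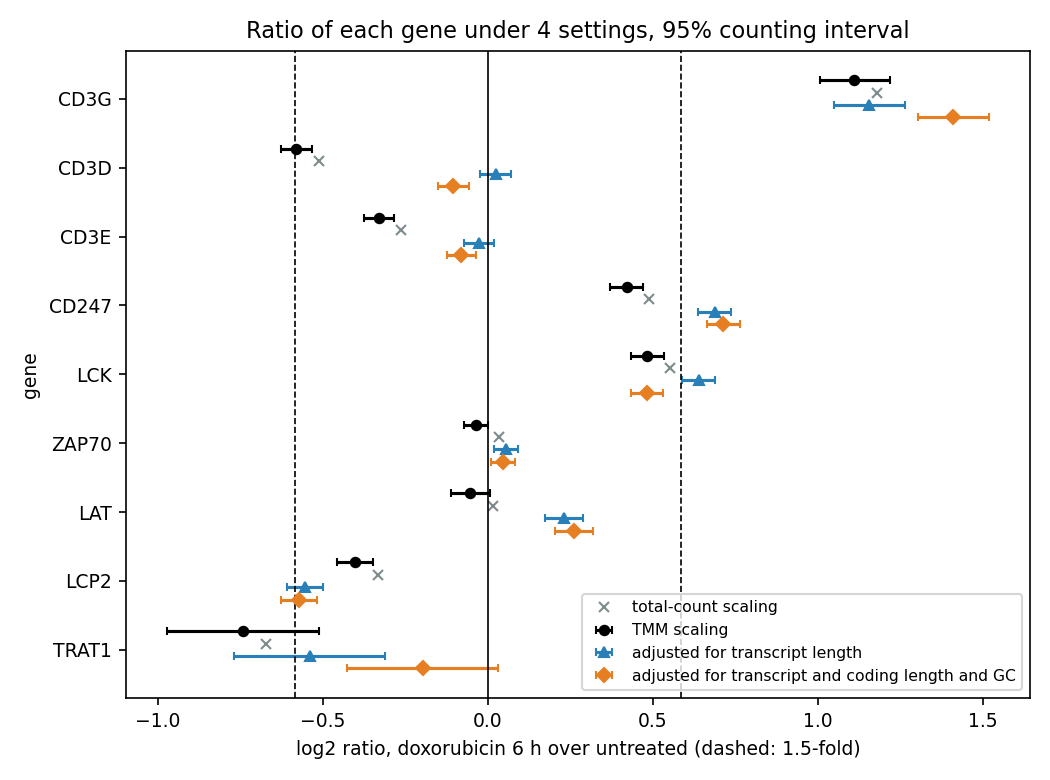
The log2 ratio of doxorubicin over untreated for each gene under TMM scaling, total-count scaling and both length adjustments, with 95% counting intervals where drawn and dashed lines at 1.5-fold. CD3G lay beyond the upper line under all 4 settings shown, and TRAT1 lay beyond the lower line only before adjustment.

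Longer transcripts went with higher ratios in the table as a whole (Spearman's rho 0.552 over 11044 genes, which share both libraries), so transcript length is given beside each gene. The longest transcript paired with RefSeq was 861 bases for CD3D, 1548 for CD3E, 1678 for CD247, 1616 for LAT and 1919 for TRAT1. It was 2117 bases for LCK, 2437 for ZAP70, 2690 for CD3G and 4678 for LCP2. At their lengths, the fitted curve gave a log2 ratio of -0.60 for CD3D and -0.30 for CD3E, close to the ratios they had. After adjustment for transcript length CD3D was at 0.02 and CD3E at -0.03. CD3G was at 1.15 and LCP2, which has the longest transcript of the 9, at -0.55. CD247 at 0.69 and LCK at 0.64 were then past 1.5-fold, and TRAT1 at -0.54 was not. With coding length and GC content added, CD3G was at 1.41, CD247 at 0.71, LCK at 0.48, LCP2 at -0.57 and TRAT1 at -0.20. The calls among the 9 genes were then CD3G and CD247 higher and 0 lower, where 4.11% of genes were higher and 3.58% lower by the same rule. After transcript length alone they were CD3G, CD247 and LCK, where 4.89% of genes were higher and 4.65% lower. With the median length over a gene's transcripts in place of the longest, CD3G was higher and TRAT1 lower, where 6.72% of genes were higher and 8.74% lower. CD3D was then still at -0.54 and CD3E at -0.28, so how near they lie to a fitted curve depends on the length used.

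**Figure D3:**
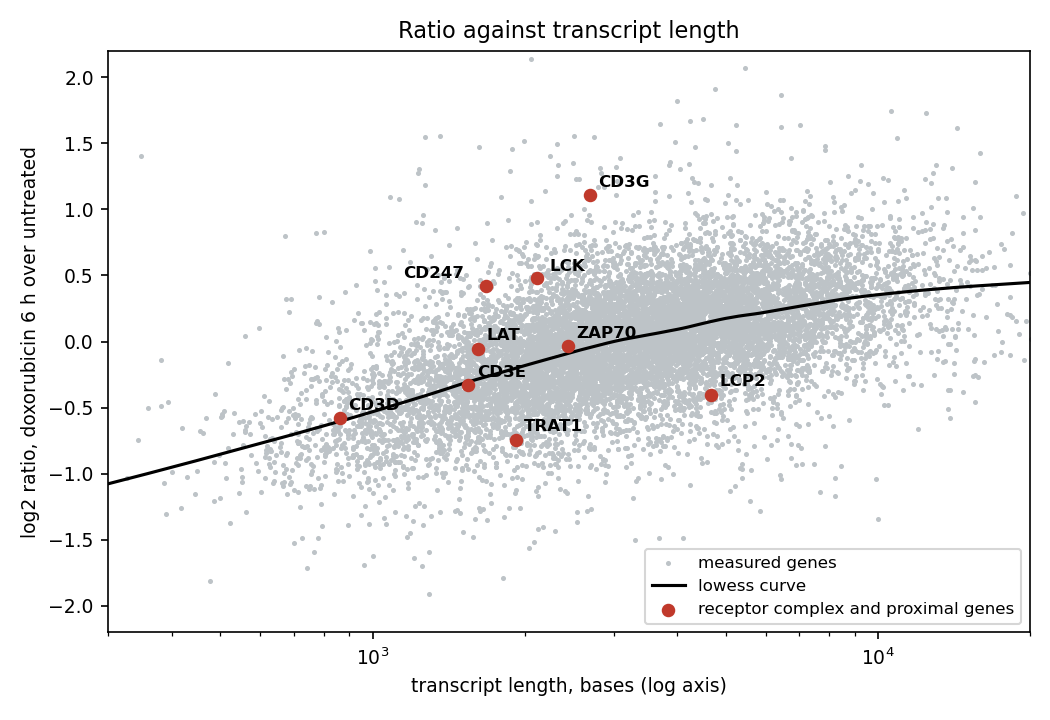
The log2 ratio of doxorubicin over untreated against transcript length in bases on a log axis for measured genes (grey), with the lowess curve and the 9 genes in red; 19 of the 11044 genes lie outside the plotted range. With the longest transcript paired with RefSeq as the length, CD3D and CD3E lay on the curve, CD3G, CD247 and LCK above it, and TRAT1 and LCP2 below it.

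Ratios between genes were compared within each library, which removes any scaling between the libraries. Of 36 pairs, 18 differed at least 1.5-fold between the libraries with an interval excluding 1, among them all 8 pairs with CD3G. The count of CD3G per count of CD3D was 0.422 with doxorubicin and 0.131 untreated, 3.23-fold higher (2.98 to 3.50). CD3G per CD3E was 0.354 with doxorubicin and 0.130 untreated, 2.71-fold higher (2.51 to 2.94). The other 10 of the 18 pairs set LCK or CD247 against TRAT1, CD3D, CD3E or LCP2, or set ZAP70 or LAT against TRAT1. LCK per CD3D was 1.43 with doxorubicin and 0.685 untreated, 2.09-fold higher (1.99 to 2.19). In 4 pairs the interval held 1, among them LCK with CD247 at 1.04-fold (0.995 to 1.10) and ZAP70 with LAT at 1.01-fold (0.965 to 1.06). CD3D with TRAT1 was at 1.12-fold (0.951 to 1.32). These ratios still hold the trend with length. After adjustment for transcript length 19 pairs differed, 16 of them among the 18, with CD3G per CD3D at 2.19-fold (2.02 to 2.38), and CD3G was no longer past 1.5-fold against CD247 and LCK. After adjustment for lengths and GC content 18 pairs differed, 15 of them among the first 18, including all 8 with CD3G. The calls lost there were ZAP70 with TRAT1 at 1.18-fold (1.01 to 1.39), LAT with TRAT1 at 1.37-fold (1.17 to 1.62) and LCK with CD3E. LCK per CD247 was then at 0.852-fold (0.812 to 0.894) and ZAP70 per LAT at 0.862-fold (0.822 to 0.904), so neither interval held 1 after that adjustment.

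**Figure D4:**
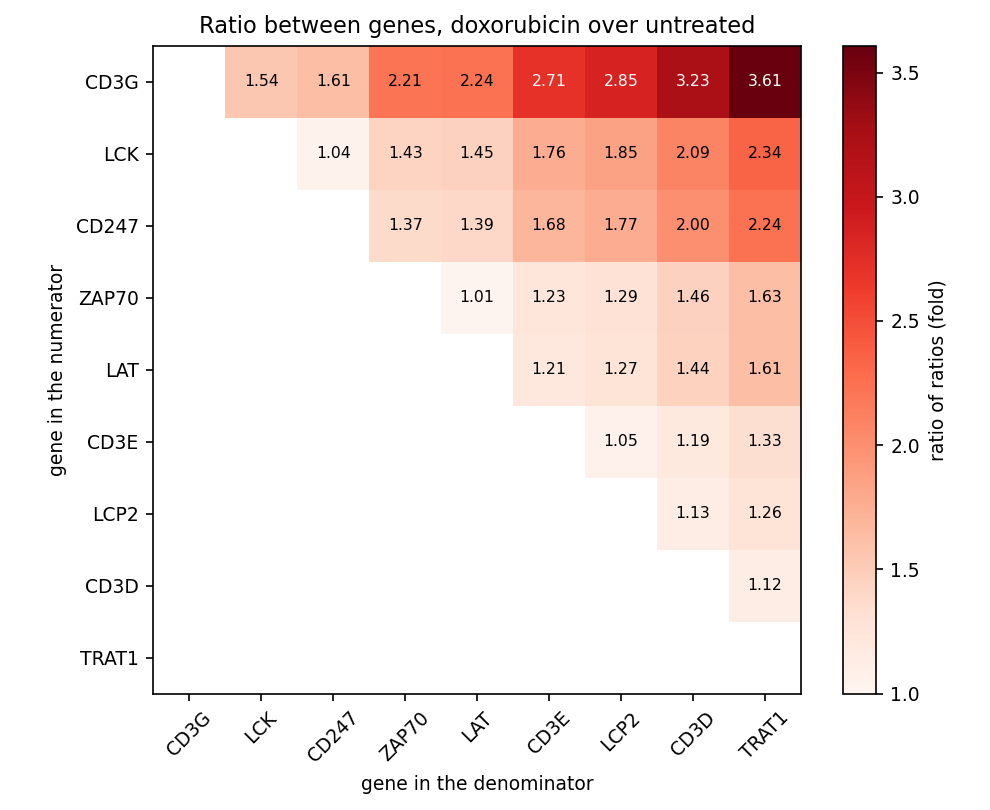
Ratio of the row gene to the column gene with doxorubicin divided by the same ratio untreated, for all 36 pairs, ordered by each gene's own ratio. The CD3G row runs between 1.54-fold against LCK and 3.61-fold against TRAT1, and LCK with CD247 and ZAP70 with LAT lie near 1.

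Levels were compared between genes per kilobase of transcript. With doxorubicin CD3D was highest at 172 CPM per kilobase, followed by ZAP70 at 128, CD247 at 120, CD3E at 114 and LCK at 100.1. In the untreated library CD3D was highest at 245 CPM per kilobase, followed by CD3E at 137, ZAP70 at 125, CD247 at 85.9 and LAT at 73.4. LCP2, CD3G and TRAT1 were the lowest 3 in both libraries, with CD3G at 23.2 with doxorubicin and 10.3 untreated. Per kilobase of coding length CD247 was highest with doxorubicin at 413 and CD3D untreated at 412, so the order depends on the length used. TRAT1 was last on both scales, at 3.18 CPM per kilobase of transcript with doxorubicin and 5.07 untreated. Together the 9 genes took 0.136% (0.135 to 0.137) of all counts with doxorubicin and 0.132% (0.131 to 0.133) untreated.

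Around the receptor, 61 of 71 pathway genes in the table were measured, of which 6 were higher, 3 lower and 52 neither by the size rule, with a median log2 ratio of 0.06. Over all measured genes 7.26% were higher and 9.57% lower, and these shares stand beside each list count below. After adjustment for lengths and GC content 5 of the 61 were higher and 1 lower, where 4.11% of all genes were higher and 3.58% lower. Of 7 receptor chain genes searched, only 1, PTCRA, was in the count table under the symbol used. The constant regions of the antigen-binding chains were not found by symbol, so their levels are not known here. PTCRA, the surrogate alpha chain of immature T cells, had 0 counts in both libraries. Among coreceptors and costimulatory receptors 2 of 3 measured genes were higher and 0 lower, where 7.26% of all genes were higher and 9.57% lower. ICOS, a costimulatory receptor of activated T cells, had 805 counts with doxorubicin and 334 untreated and was 1.54-fold higher (1.36 to 1.76). CD8A was 2.32-fold higher (1.46 to 3.97) from only 81 counts with doxorubicin and 22 untreated, while CD8B had 0 in both. CD4, the coreceptor that brings LCK to the receptor, had 1387 counts with doxorubicin and 768 untreated, a log2 ratio of 0.21 (0.08 to 0.34).

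Of CD45 and the Src and Tec family kinases, 0 of 5 measured genes passed the size rule, where 7.26% of all measured genes were higher and 9.57% lower. PTPRC, which encodes the phosphatase CD45 that keeps LCK active, had 16510 counts with doxorubicin and 10347 untreated, a log2 ratio of 0.03. FYN, the other Src kinase of T cells, had 12868 counts with doxorubicin and 10212 untreated, a log2 ratio of -0.31. The ratios of LCK and FYN thus lay on opposite sides of 0. TXK, a Tec-family kinase with 151 counts with doxorubicin and 65 untreated, was at 0.57, just short of the size limit, and at 0.62, past it, after adjustment for lengths and GC content, where 4.11% of all genes were higher.

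Among adaptors around LAT and SLP-76, 0 of 13 measured genes were higher and 3 were lower, where 7.26% of all genes were higher and 9.57% lower, with a median log2 ratio of -0.24. SH2D1A, which encodes the small adaptor SAP, was 1.85-fold lower (1.74 to 1.96), with 2010 counts with doxorubicin and 2381 untreated. SKAP1, which links the receptor to integrin adhesion, was 1.66-fold lower (1.31 to 2.10) from 141 counts with doxorubicin and 150 untreated. LIME1, a transmembrane adaptor, was 1.64-fold lower (1.53 to 1.76), but 51.1% of its exon bases are overlapped by other protein-coding genes and its sampled stretches also occur in other transcripts, so its count is uncertain. After adjustment for lengths and GC content only SKAP1 of these 3 was past the size rule, at a log2 ratio of -0.59, with SH2D1A at -0.42 and LIME1 at -0.05, where 3.58% of all genes were lower. SKAP1 only just reached the limit there. After transcript length alone SH2D1A was past 1.5-fold at -0.80, while SKAP1 at -0.42 and LIME1 at -0.27 were not, so which of them stays lower depends on the adjustment. GRAP2, which bridges LAT and SLP-76, was at 0.48, on the other side of 0 from LCP2.

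Of 22 downstream effectors 3 were higher and 0 lower, where 7.26% of all genes were higher and 9.57% lower, with a median log2 ratio of 0.09. ITPR1 and ITPR3, calcium channels of the endoplasmic reticulum opened by inositol trisphosphate, were 1.84-fold (1.78 to 1.92) and 1.55-fold (1.49 to 1.62) higher. NFATC2, a calcium-dependent transcription factor, was 1.76-fold higher (1.66 to 1.86), with 4311 counts with doxorubicin and 1573 untreated. These 3 genes have transcripts of 10197, 9029 and 7525 bases, and none was past the size rule after adjustment for lengths and GC content, at log2 ratios of 0.32, 0.08 and 0.39. PLCG1, the phospholipase recruited by LAT, was at 0.51, and VAV1, the exchange factor bound by SLP-76, was at 0.03. WAS, a regulator of actin at the synapse, was at -0.55, with 11750 counts with doxorubicin and 11028 untreated. After adjustment for lengths and GC content PLCG1 was at 0.07, VAV1 at -0.11 and WAS at -0.44.

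Of 18 measured negative regulators 1 was higher and 0 were lower, where 7.26% of all genes were higher and 9.57% lower, with a median log2 ratio of -0.06. LAX1, a transmembrane adaptor that restrains receptor signalling, was 1.87-fold higher (1.68 to 2.10), with 1228 counts with doxorubicin and 420 untreated, and was past the size rule at 0.84 after adjustment for lengths and GC content. DOK1, an adaptor that dampens Ras signalling, was at 0.50 and, after that adjustment, past the size rule at 0.60, so 2 of 18 were then higher, where 4.11% of all genes were. CSK, the kinase that inhibits LCK, had 34097 counts with doxorubicin and 24977 untreated, the most counts of the list, and was at -0.19. PAG1, which anchors CSK at the membrane, was at 0.53, and CBL, a ubiquitin ligase for activated kinases, was at 0.51. After adjustment for lengths and GC content CSK was at -0.11, PAG1 at 0.30 and CBL at 0.11.

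**Figure D5:**
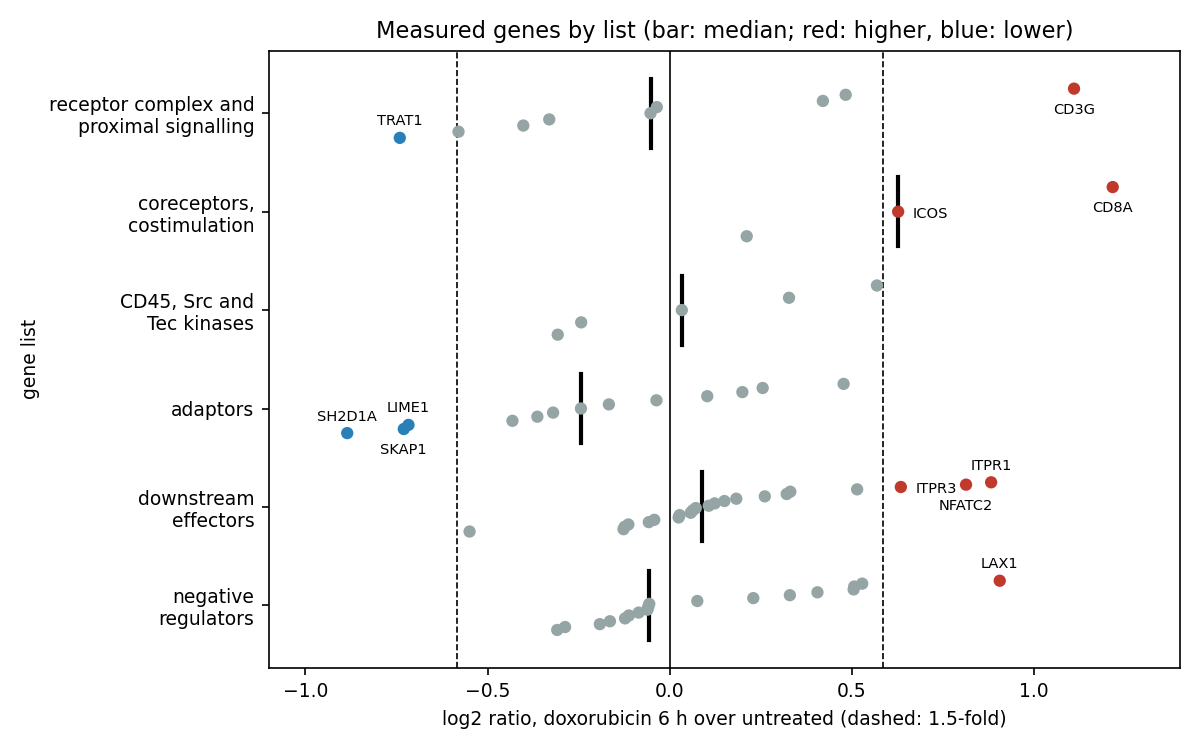
The log2 ratio of doxorubicin over untreated for every measured gene of each list, with the list's median as a bar, dashed lines at 1.5-fold and names for genes past the size rule. The 9 receptor and proximal genes spread between -0.74 and 1.11, and the lists' medians lie between -0.24 and 0.63.

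The T cell label was checked against 8 markers. CD5, BCL11B, TCF7 and CD4 had at least 768 counts in each library, whereas CD2 had 2 counts with doxorubicin and 0 untreated and CD7 had 8 in each. CD8A had 81 counts with doxorubicin and 22 untreated, and CD8B had 0 in both. All 8 natural killer markers together came to 0.957 CPM with doxorubicin and 1.33 CPM untreated, and 1 of the 8, NCR1, had 0 counts in both. The 8 myeloid markers came to 2.85 CPM with doxorubicin and 1.75 CPM untreated, most of it CD68, and SPI1 and FCGR3A had 0 counts in both. CD68 had 127 counts with doxorubicin and 49 untreated and was 1.65-fold higher (1.19 to 2.36). Its count is uncertain, because 91.9% of its sampled stretches also occur in other transcripts. The 8 B cell markers came to 155 CPM with doxorubicin and 201 CPM untreated, nearly all of it CD79A and CD79B, while PAX5 had 0 counts in both libraries. The part of these other markers in the ratios above was not tested.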

How the data were processed

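The authors deposited unscaled counts, whole numbers of reads for each gene symbol, without correction for length. HISAT2, featureCounts and hg19 are named in the submitters' processing notes. Not given in the sources used here are software versions, gene annotation, strandedness and how multi-mapping reads were handled.

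Scaling used TMM factors from the full table (edgeR 4.0.16, R 4.3.3), a ratio of 1.56 between the libraries. Log2 ratios of doxorubicin over untreated used 0.5 added to each count. Intervals are exact Clopper-Pearson at 95% for ratios and shares, exact conditional for pairs (scipy 1.17.1) and exact Poisson for levels. The labels name no molecular identifiers, so reads may be PCR copies and intervals cover counting error only. The floor behind a 0 is 3 counts per library, or 0.0598 CPM with doxorubicin and 0.0889 CPM untreated. The ratio code was checked on simulated counts with known fold changes.

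Lengths, GC content, exon overlap and shared stretches of 50 bases, sampled every 25, came from GENCODE 29, which matched 98.2% of measured genes. Adjustments used a lowess curve of span 0.3 or regression splines fitted over those genes. The genes, lists and alternatives were chosen with earlier results of these data known. Every receptor and proximal gene is named, and from each pathway list the genes past the size rule or, where none passed, the 2 with the most counts, plus CD4. Others named for their role were chosen after their values were seen.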

Additional observations from a re-analysis of the deposited data

How the results depend on the processing

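Each of the 9 genes was recomputed under 6 alternatives, namely DESeq2 1.42.0 size factors, total-count scaling, an added count of 2, both length adjustments and an adjustment for the median transcript length, which was added after seeing the data. In 45 of 54 cases the sign was as reported. The 9 others were 4 each for ZAP70 and LAT, which reached 0.05 and 0.26, and 1 for CD3D. CD3G stayed past the size rule in all 6, between 1.11 and 1.41, and TRAT1 lost its call under both length adjustments. The number of the 9 genes past the size rule was 2, and it was 7 with the limit at 25% above 1 and 1 at 2-fold, and 2 with a count minimum of 10 or 500 or a 99% interval. Of the 61 pathway genes 9 passed, where 16.8% of all measured genes did. At the 25% limit 22 passed, 16 higher and 6 lower, where 20.4% of all genes were higher and 21.5% lower. At 2-fold 1 was higher and 0 lower, where 1.14% of all genes were higher and 1.56% lower. After adjustment for transcript length 4 passed, 3 higher and 1 lower, where 4.89% of genes were higher and 4.65% lower. The share of CD3G among CD3 counts was 10.0 percentage points larger with doxorubicin, 5.96 with CD247 in the denominator and 4.89 per transcript length. Of 36 pairs 18 differed, against 28 at the 25% limit, 10 at 2-fold and, in adjustments added after seeing the data, 19 after transcript length and 18 after lengths and GC content. No share over pairs of all measured genes stands beside these pair counts. Total-count scaling shifted every log2 ratio by 0.07. Variation between cultures was not measured. No paired analysis was possible because each condition has 1 library.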

Other observations

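The genes below were chosen after their values were seen. SYK, the kinase related to ZAP70 that serves the B cell receptor, was at 0 in both libraries, below a floor of 0.0598 CPM with doxorubicin and 0.0889 CPM untreated. FCER1G, the Fc receptor gamma chain related to the zeta chain, had 26 counts with doxorubicin and 25 untreated. SLA, which encodes the adaptor SLAP, had 0 in both, while its relative SLA2 had 4337 counts with doxorubicin and 3445 untreated, a log2 ratio of -0.31. THEMIS, an adaptor of thymocyte signalling, had 5 counts with doxorubicin and 0 untreated. CD28, the main costimulatory receptor of resting T cells, had 13 counts with doxorubicin and 8 untreated.

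CD79A, a signalling chain of the B cell receptor, had 6628 counts with doxorubicin and 6007 untreated, or 132 CPM with doxorubicin and 178 CPM untreated, against 148 CPM with doxorubicin and 211 CPM untreated for CD3D. Its log2 ratio was -0.50 (-0.55 to -0.45), and its sampled stretches did not occur in other transcripts. CD79B, its partner, had 1065 counts with doxorubicin and 755 untreated, with 22.7% of its exon bases overlapped by another annotated gene. Of the other B cell markers, BLNK had 1 count with doxorubicin and 0 untreated, and MS4A1, which encodes CD20, had 2 with doxorubicin and 10 untreated.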
